A study of Mus musculus with 2 samples.

Results

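The genes described here encode membrane carriers for organic anions and cations, bile acids, monocarboxylates, phosphate, sulfate and citrate. They are the genes whose name on the array begins with Slco, Slc22a, Slc10a, Slc47a, Slc17a, Slc16a or Slc13a followed by a digit. This rule used names only and no measured value. It gave 78 genes with 105 probes, of 30166 genes with 39429 probes on the array. Liver RNA was profiled from male C57BL/6J mice in 2 groups of 1 sample, labelled wild type and knockout. The knocked-out gene is Drp1 (symbol Dnm1l), whose product, a GTPase, cuts mitochondria apart. Both had eaten a lard-based diet with 24% fat (45% of its energy) for 24 weeks, starting at 4 weeks of age. The study's title places the disruption of Drp1 in the liver, but neither the labels nor the design text gives the promoter of a Cre, the deleted part of the gene or the number of animals behind each RNA. They also do not say which of the described feeding states, a fast of 17 h or refeeding for 4 h, applied to these livers, and its part in the values was not tested.

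With 1 array a group, the differences have no replicate check, and no test between the groups was possible. Levels are multiples of the 75th percentile of the array's own signals, and differences are knockout minus wild type on the log2 scale. Spots of the same probe varied with an SD of 0.11 log2 units on each array, or 0.16 for a difference between arrays, which covers measuring error on the array and not the spread between mice. A probe counted as measured where it was marked well above background. This held for 50.5% of wild type probes and 57.1% of knockout probes, and 15388 genes were measured on both. Dnm1l stood at 2.03 in the wild type and 1.75 in the knockout, a difference of -0.21. Where its probe lies relative to the deleted part is not given in the sources used here, so it does not check the label.

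Liver cells exchange solutes with blood across the sinusoidal membrane and with bile across the canalicular membrane. Slco carriers (organic anion transporting polypeptides) and the sodium-coupled Slc10a1 bring bile acids, bilirubin, hormones and drugs into hepatocytes from blood. Slc22a carriers move organic cations, carnitine and organic anions, and Slc47a carriers expel organic cations in exchange for protons. Slc16a carriers move lactate, ketone bodies and aromatic amino acids, Slc17a carriers phosphate, urate and other anions, and Slc13a carriers sulfate, succinate and citrate.

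Of the 78 genes, 49 were measured on both arrays (62.8%, against 51.0% of all genes), 5 on the wild type array only, 4 on the knockout array only and 20 on neither. Among the 49, 20 were at least 1.5-fold lower in the knockout, 3 were at least 1.5-fold higher and 26 lay between. Over all 15388 genes measured on both arrays, 13.4% were lower and 8.42% were higher by the same rule. At 2-fold, 11 members were lower and 0 were higher, beside 3.65% and 2.9% of all genes. The members' median difference was -0.47, beside -0.11 for all genes, and 35 of the 49 lay below 0. Split into 4 equal bins of the mean level of all measured genes, the lower members were 7 of 16 in the dimmest bin, 1 of 11 in the second, 9 of 15 in the third and 3 of 7 in the brightest. The shares of other genes that were lower in the same bins were 17.98%, 10.9%, 9.84% and 14.5%.

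**Figure D1:**
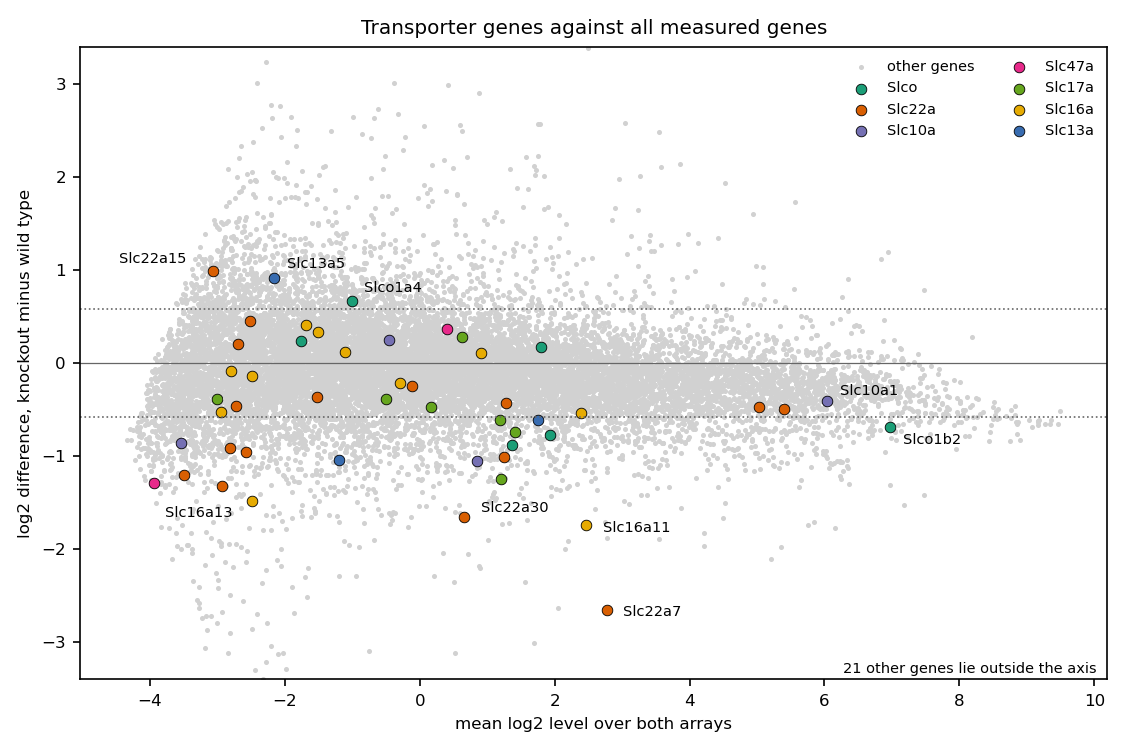
Log2 difference (knockout minus wild type) against mean log2 level for the 49 transporter genes measured on both arrays, coloured by family, over the other measured genes in grey. Each point is 1 gene from 1 array per group and dotted lines mark 1.5-fold; 20 transporter genes lie at or below the lower line and 3 at or above the upper one.

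The direction of many differences depends on how the arrays are put on 1 scale. With scaling to the E1A spike-in probes, chosen after the data were seen, the median of all genes moved by 0.79 to 0.68. On that scale 4 of the 49 members were at least 1.5-fold lower and 16 higher, beside 1.34% and 59.1% of all genes, and their median was 0.32. The 4 were Slc22a7 (-1.87), Slc16a11 (-0.96), Slc22a30 (-0.86) and Slc16a13 (-0.69). For Slc16a13 this is a mean over probes at -2.33 and -0.64 on the 75th percentile scale, and the latter lies above 0 with spike-in scaling. The gap between the members' median and that of all genes was -0.36, which a constant added to every gene, as in spike-in scaling, cannot change. It ran from -0.30 to -0.45 under the other 8 settings tried. Directions below are those of the 75th percentile scale. Spike-in scaling adds 0.79 to each of them, so every difference below between -0.79 and 0 lies above 0 on that scale, for members, markers and other genes alike; its values are printed for the families, the lists and some of the members. Loess normalization moved the median of all genes by 0.11, and higher genes then made up 50.7% of the genes at least 1.5-fold apart, against 38.6% in the values reported. Without the filter on dim probes the median moved by -0.20 and that share was 21.9%.

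**Figure D2:**
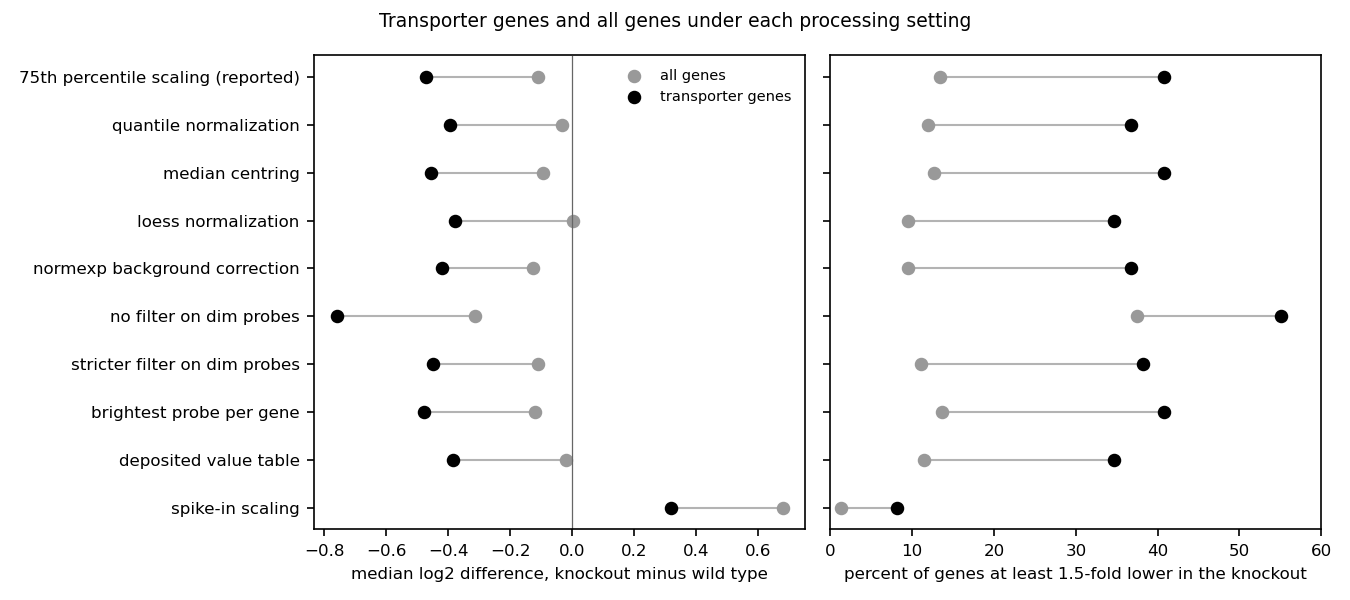
Median log2 difference (left) and percent of genes at least 1.5-fold lower in the knockout (right) for all measured genes (grey) and the transporter genes (black) under each processing setting, 1 array per group. The transporter genes' median lies below that of all genes in every setting shown, and both are above 0 with spike-in scaling.

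A summed level adds the highest probe level of each list gene measured on that array, while differences average probes. It can cover different genes on each array. The hepatocyte markers had a summed level of 3253 in the wild type and 2285 in the knockout. Their median difference was -0.42 (above 0 with spike-in scaling), and 3 of 10 were lower (Ttr, Serpina1a and Fabp1) while 2 were higher (Tat and Cps1). Macrophage markers had a median of 1.003 (8 of 8 measured on both arrays, 5 higher) and stellate cell markers of 1.06 (8 of 8, 6 higher). Neutrophil markers had a median of -1.04, with 5 of 5 lower. Of all genes, 13.4% were lower and 8.42% higher by the same rule. The markers' part in the members' differences was not tested. In whole liver, fewer cells of a type and less RNA per cell cannot be told apart.

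Among carriers that take organic anions up from blood, Slc22a7 showed the greatest difference of the 49. Slc22a7, an organic anion transporter of the sinusoidal membrane, stood at 17.1 in the wild type and 2.72 in the knockout, 6.31-fold lower (-2.66). Its probe lies on chromosome 17 at 46569272 to 46569331 (mm9). It remained at least 1.87 log2 units lower under all settings tried, spike-in scaling included.

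The Slco family had 6 of 15 genes measured on both arrays, 3 lower and 1 higher, beside 13.4% and 8.42% of all genes. The family's median was -0.26 (0.53 with spike-in scaling). Slco1b2, the main hepatic importer of unconjugated bile acids and many drugs, stood at 159 in the wild type and 98.9 in the knockout (-0.69; 0.10 with spike-in scaling). Its difference was under 1.5-fold with quantile (-0.36) and loess normalization (-0.31) and in the deposited value table (-0.36). Slco1a1, a sex-biased hepatic importer of steroid sulfates and other anions, was at 3.50 and 1.90 (-0.88, and -0.09 with spike-in scaling). Slco2b1, a carrier of steroid sulfates, was at 4.97 and 2.90, and its pair of probes gave -0.79 and -0.76 (mean -0.78; 0.01 with spike-in scaling); these probes share 38 bases. All 3 were lower in the knockout on the reported scale. Slco1a4, a close relative of Slco1a1 that carries bile acids and steroid conjugates, was higher, at 0.394 in the wild type and 0.627 in the knockout (0.67). Slco2a1, the prostaglandin transporter, was at 3.28 and 3.69 (0.17), and Slco3a1, a broadly expressed anion carrier, at 0.273 and 0.323, with probes at -0.05 and 0.53.

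Slco1a5, a carrier best known from intestine, was measured on the wild type array only, where 1 of its 2 probes read 0.330. On the knockout array that probe was not well above background, which gives a level at least 8.95-fold lower (a bound of -3.16, the wild type level against the lowest level well above background on the knockout array). The bound was -2.04 with normexp and -2.37 with spike-in scaling. The other probe was not well above background on either array. On the same array, 10 of 12 skeletal muscle markers were measured, at a summed level of 9.51, and 0 of 12 on the knockout array. The adipocyte gene Cfd was at 4.23 there and 0.126 in the knockout, while Cidec (1.89) and Lpl (0.98) were higher in the knockout and Fabp4 differed by 0.015. Over these 4 measured markers of 8, the median was 0.50 and the summed level 11.6 in the wild type and 16.3 in the knockout; Adipoq, Plin1, Lep and Retn were not well above background on either array. The part of such tissue in the Slco1a5 value was not tested. Slco4a1 was measured on the knockout array only, and no fold above 1 could be bounded. Slco1a6, Slco1c1, Slco4c1, Slco5a1, Slco6b1, Slco6c1 and Slco6d1 were not well above background on either array.

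In the Slc10a family 2 of 4 genes measured on both arrays were lower and 0 were higher, beside 13.4% and 8.42% of all genes. The family's median was -0.63 (0.16 with spike-in scaling). Slc10a1, the sodium-dependent bile acid importer of hepatocytes (NTCP), was read by a pair of probes on chromosome 12 (mm9). The probe at 82061470 to 82061529 read 11.999 in the wild type and 9.44 in the knockout (-0.35), and the one at 82056539 to 82056598 read 482 and 348 (-0.47). Their mean of -0.41 did not reach 1.5-fold, and was 0.38 with spike-in scaling. It was -0.038 under quantile and -0.071 under loess normalization and -0.043 in the deposited value table. Slc10a2, the bile acid importer of ileum and bile duct cells (ASBT), stood at 2.60 in the wild type and 1.25 in the knockout (-1.06). A probe filed under 9130221J18Rik, which RefSeq assigns to Slc10a2 and which lies outside the name rule, read 1.42 and 0.659 (-1.11). Of 9 bile duct markers, 6 were measured on both arrays, with a median of 1.13, and 5 of these were higher, unlike Slc10a2. Cftr was measured in the wild type only (0.0814), Krt7 in the knockout only (0.0397) and Epcam on neither array. The summed level of the list was 1.04 in the wild type and 2.30 in the knockout. Slc10a5, a member with no settled substrate, was at 0.115 and 0.0636 (-0.86, and -0.07 with spike-in scaling). Slc10a3 was at 0.667 and 0.793 (0.25).

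Slc10a6, a carrier of sulfated steroids (SOAT), was measured on the knockout array only, by both of its probes. The brighter one read 0.252 in the knockout and 0.0158, not well above background, in the wild type. This gives a level at least 4.25-fold higher in the knockout. The bound of 2.09 was 0.91 with normexp and 2.88 with spike-in scaling. The other probe read 0.0633 in the knockout and 0.0287 in the wild type. Slc10a7 was measured in the wild type only, at 0.0663, at least 1.80-fold higher there. Slc10a4 was not well above background on either array. Over all genes measured on 1 array only, the bound reached 1.5-fold for 100% of the 387 wild type genes and for 26.3% of the 2174 knockout genes, so a bound of that size on a wild type gene says little. With spike-in scaling the bounds of Slc10a7 (-0.058), Slc16a8 (-0.40) and Slc22a26 (-0.42) were under 1.5-fold, as was that of Slc22a14 with normexp (0.42; 1.85 with spike-in scaling).

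**Figure D3:**
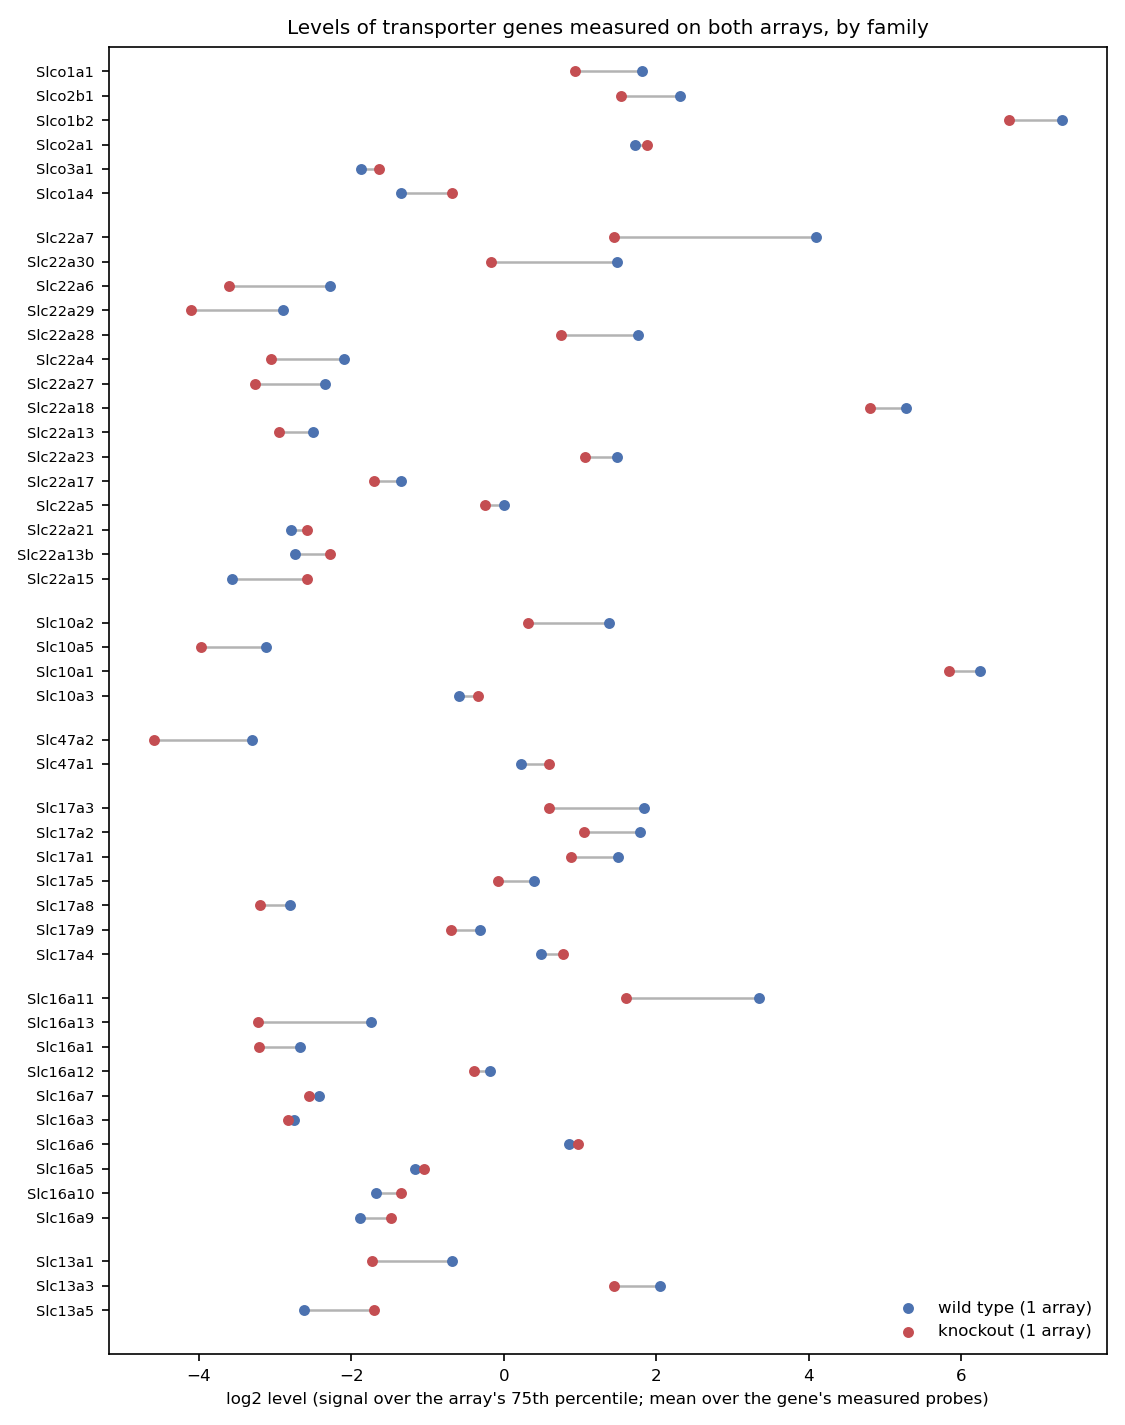
Log2 level on the wild type array (blue) and the knockout array (red) for 47 of the 49 transporter genes measured on both, grouped by family and ordered by difference within each; each point is the mean over the gene's measured probes on 1 array. Slc22a7 has the longest line, from 4.10 to 1.44; levels of different genes come from different probes and are not comparable.

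The Slc22a family had 16 of 26 genes measured on both arrays, 7 lower and 1 higher, beside 13.4% and 8.42% of all genes. The family's median was -0.49 (0.30 with spike-in scaling). Besides Slc22a7, the lower organic anion carriers were Slc22a6, Slc22a27, Slc22a28, Slc22a29 and Slc22a30. Slc22a6, the organic anion transporter best known from kidney tubules (OAT1), was at 0.206 in the wild type and 0.0826 in the knockout (-1.32). Its difference was -0.93 with normexp and -0.53 with spike-in scaling. Of 8 kidney tubule markers, 2 were measured in the wild type and 3 in the knockout, at summed levels of 0.575 and 0.548, and Umod, Slc12a1, Slc12a3, Kap and Nphs1 were not well above background on either array. Slc22a4, a carrier of ergothioneine (OCTN1), stood at 0.234 in the wild type and 0.120 in the knockout (-0.96, and -0.17 with spike-in scaling).

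The carnitine importer Slc22a5 (OCTN2) was at 1.002 and 0.844 (-0.25; 0.54 with spike-in scaling), and the related Slc22a21 at 0.144 and 0.167 (0.21). Slc22a18, an imprinted member, was at 38.7 and 27.8 (-0.48), under 1.5-fold, and spike-in scaling gave 0.31. Slc22a15, a less studied member, was higher, at 0.0847 in the wild type and 0.168 in the knockout (0.99), by 1 of its 2 probes. The other probe was not well above background on either array.

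Slc22a13, Slc22a23 and Slc22a17 differed by -0.46, -0.43 and -0.36, and Slc22a13b by 0.45, all under 1.5-fold. Slc22a14 was measured in the knockout only, at 0.124 against 0.0128 in the wild type, at least 2.09-fold higher. Slc22a26 was measured in the wild type only, at 0.0850, at least 2.31-fold above the knockout. The renal and extrahepatic members Slc22a2, Slc22a3, Slc22a8, Slc22a12, Slc22a16, Slc22a19, Slc22a20 and Slc22a22 were not well above background on either array.

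Several of these genes are neighbours. On chromosome 19, between 7747661 and 8700927 (mm9), lie Slc22a19, Slc22a26, Slc22a27, Slc22a28, Slc22a29, Slc22a30, Slc22a8 and Slc22a6. All 5 measured on both arrays were lower, beside 13.4% of all genes. Slc22a27 was at 0.196 in the wild type and 0.104 in the knockout (-0.92, and -0.13 with spike-in scaling). Slc22a28 was at 3.37 and 1.68, with probes at -1.19 and -0.82 (mean -1.01, and -0.22 with spike-in scaling). Slc22a29 was at 0.135 and 0.0584 (-1.21), where the lowest level well above background on the knockout array was 0.0368. Its difference was -0.80 with normexp, -0.99 with loess normalization and -0.42 with spike-in scaling. Slc22a30 was at 2.79 and 0.888, 3.14-fold lower (-1.65). These are members of a rodent organic anion transporter group and resemble one another, so a single member's value is uncertain where its probe may also bind a relative's transcript. Of 5430 pairs of probes of different members, the most alike shared 32 of 60 bases without gaps. This sets probes against probes and not against transcripts, so it cannot show whether a probe binds a relative's transcript.

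The stretches before the start sites of Slc22a28, Slc22a29 and Slc22a30 are shown because these neighbours were lower together and their sequences are alike. Slc22a28 and Slc22a30 were identical at 238 of 244 aligned bases (97.5%), Slc22a28 and Slc22a29 at 174 of 213 (81.7%), and Slc22a29 and Slc22a30 at 171 of 207 (82.6%). The sequences are RefSeq's (GRCm38.p6, chromosome 19, minus strand, 250 bases up to the start): Slc22a28 at chr19:8131983-8132232, Slc22a29 at chr19:8218901-8219150 and Slc22a30 at chr19:8405106-8405355. Capitals mark matches to any of 12 searched motifs, here TTGCNNAA in all 3 and GTTAAT in Slc22a29.
Slc22a28: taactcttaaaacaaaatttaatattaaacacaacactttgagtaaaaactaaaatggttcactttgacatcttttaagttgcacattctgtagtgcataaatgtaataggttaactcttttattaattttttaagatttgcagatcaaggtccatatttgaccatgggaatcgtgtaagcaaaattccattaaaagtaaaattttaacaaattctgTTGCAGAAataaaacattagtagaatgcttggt
Slc22a29: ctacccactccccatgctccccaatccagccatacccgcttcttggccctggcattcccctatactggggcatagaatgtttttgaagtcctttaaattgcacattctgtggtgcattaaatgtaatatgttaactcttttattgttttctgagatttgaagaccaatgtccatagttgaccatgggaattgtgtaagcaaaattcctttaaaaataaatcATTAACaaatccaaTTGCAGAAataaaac
Slc22a30: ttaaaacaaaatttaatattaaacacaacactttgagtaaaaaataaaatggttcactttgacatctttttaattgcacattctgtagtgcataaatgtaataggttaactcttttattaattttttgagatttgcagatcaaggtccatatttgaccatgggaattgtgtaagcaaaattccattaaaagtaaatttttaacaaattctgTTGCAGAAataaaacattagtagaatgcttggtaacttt

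Promoter windows were found for 61 of the 78 members (71 windows of 300 bases), and 12 short motifs of factors known from liver genes were searched in them on both strands. The motifs were chosen and the windows to show were picked after matches and values had been seen, and a match is a string of letters, not a binding site. TTCNNNGAA, a STAT motif, was in 12 of 71 windows, beside 8.30% of all 32851 promoters. GTTAAT was in 6 (7.10% of all), TTGCNNAA, a C/EBP-like motif, in 6 (10.8%), TGATGNAA, a C/EBP-ATF composite, in 2 (3.97%), and TATAAA, the TATA box, in 11 (13.6%). The other 7 were in 0 windows: TGACGTCA, the cyclic AMP response element (1.79% of all), CAAAGGTCA, an HNF4 core (0.478%), TGACCTTNG, an LRH-1 motif (1.34%), TTGCGCAA, a C/EBP palindrome (0.183%), a direct repeat of AGGTCA with 1 base between (0.0396%), an inverted repeat of it with 1 base between (0.00913%) and GTTAAT followed by its reverse complement with 1 base between (0.00913%). No matches of different motifs overlapped in the members' windows. TTGCNNAA includes TTGCGCAA by its letters.

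In the Slc17a family 3 of 7 genes measured on both arrays were lower and 0 higher, beside 13.4% and 8.42% of all genes. The family's median was -0.47 (0.32 with spike-in scaling). The 3 lower genes are neighbours on chromosome 13, between 23914509 and 23998587 (mm9), and belong to the sodium phosphate and urate carriers. Slc17a2 was read by 3 probes, at 14.8, 3.19 and 0.880 in the wild type and 10.5, 1.83 and 0.461 in the knockout; all 3 were lower (-0.49, -0.80 and -0.93, mean -0.74). Slc17a3 was read by a pair of probes, at 6.19 and 2.06 in the wild type and 3.38 and 0.669 in the knockout (-0.87 and -1.62, mean -1.25). Slc17a1 stood at 2.83 in the wild type and 1.85 in the knockout (-0.62). With spike-in scaling Slc17a1 was at 0.17 and Slc17a2 at 0.05. Slc17a1 was under 1.5-fold with quantile (-0.56) and loess normalization (-0.54), normexp (-0.55) and the value table (-0.55). So was Slc17a2 with its brightest probe alone (-0.49). The fourth of the group, Slc17a4, was at 1.41 and 1.71 (0.29) by 1 of its 2 probes. Its other probe was measured on the knockout array only, at 0.120. In the wild type that probe read 0.0479, not well above background, where the lowest level well above background was 0.0593.

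The stretches before the starts of Slc17a1, Slc17a2 and Slc17a3 are shown because these neighbours were also lower together (RefSeq, GRCm38.p6, chromosome 13, plus strand). How alike these stretches are was not measured. Slc17a1 has a pair of starts in the table, with stretches at chr13:23868768-23869017 and chr13:23870023-23870272. Slc17a2 is at chr13:23806743-23806992 and Slc17a3 at chr13:23839184-23839433. Capitals mark TTCNNNGAA in Slc17a2, Slc17a3 and the second start of Slc17a1, and TGATGNAA in the first.
Slc17a1 (start 1 of 2): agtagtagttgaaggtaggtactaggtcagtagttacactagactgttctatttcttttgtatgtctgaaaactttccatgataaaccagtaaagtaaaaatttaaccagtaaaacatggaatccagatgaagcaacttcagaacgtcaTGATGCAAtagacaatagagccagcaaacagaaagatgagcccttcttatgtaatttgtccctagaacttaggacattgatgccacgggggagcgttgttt
Slc17a1 (start 2 of 2): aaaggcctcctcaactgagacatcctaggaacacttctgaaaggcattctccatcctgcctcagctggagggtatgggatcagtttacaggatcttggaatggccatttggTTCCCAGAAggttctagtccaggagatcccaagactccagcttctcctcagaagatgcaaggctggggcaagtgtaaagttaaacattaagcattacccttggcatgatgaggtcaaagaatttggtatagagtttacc
Slc17a2: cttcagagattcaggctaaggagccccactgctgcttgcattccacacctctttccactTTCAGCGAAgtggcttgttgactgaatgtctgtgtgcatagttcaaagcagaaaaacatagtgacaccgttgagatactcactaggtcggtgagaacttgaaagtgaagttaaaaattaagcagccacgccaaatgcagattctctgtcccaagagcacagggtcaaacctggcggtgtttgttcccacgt
Slc17a3: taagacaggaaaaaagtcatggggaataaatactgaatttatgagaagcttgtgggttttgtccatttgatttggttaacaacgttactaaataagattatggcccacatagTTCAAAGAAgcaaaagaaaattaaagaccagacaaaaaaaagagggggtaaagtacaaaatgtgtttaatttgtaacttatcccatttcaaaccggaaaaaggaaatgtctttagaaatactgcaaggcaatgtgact

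**Figure D4:**
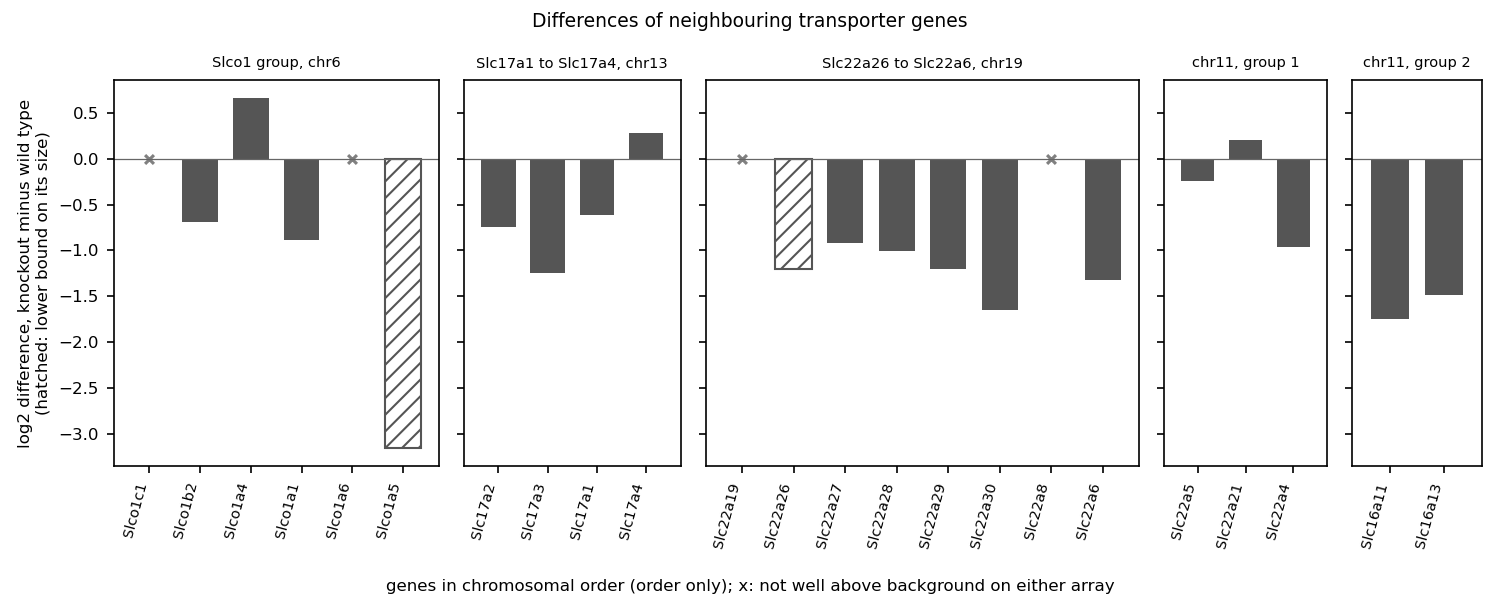
Log2 difference (knockout minus wild type, 1 array per group) of transporter genes in the order in which they lie on their chromosomes, for 5 groups of neighbours; solid bars are measured differences, hatched bars are lower bounds on the size for genes measured on the wild type array only, and crosses are genes not well above background on either array. The chromosome 19 group has 5 solid bars, all below 0, while the chromosome 6 and 13 groups and the first of the chromosome 11 groups each hold a bar above 0. Other groups of neighbours are not drawn. They include Slc22a14 (a bound of 1.06), Slc22a13 (-0.46) and Slc22a13b (0.45) on chromosome 9. The pair Slc47a2 (-1.29) and Slc47a1 (0.37) on chromosome 11 is also left out.

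Of the other Slc17a genes, Slc17a5, the lysosomal sialic acid exporter sialin, was at 1.32 and 0.952 (-0.47), but its probes gave -0.91 and -0.04. Slc17a8, a vesicular glutamate transporter, was at 0.143 and 0.109 (-0.39), and Slc17a9, the vesicular nucleotide transporter, at 0.808 and 0.618 (-0.39). None of these reached 1.5-fold. The vesicular glutamate transporters Slc17a6 and Slc17a7 were not well above background on either array.

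The Slc16a family had 11 of 14 genes measured on both arrays, 2 lower and 0 higher, beside 13.4% and 8.42% of all genes. The family's median was -0.14 (0.65 with spike-in scaling). Both lower genes lie side by side on chromosome 11, with probes between 70029853 and 70030546 (mm9). Slc16a11, a monocarboxylate carrier of hepatocytes known from a diabetes risk locus, stood at 10.2 in the wild type and 3.03 in the knockout, 3.36-fold lower (-1.75). Slc16a13, its neighbour at the same locus, was read by a pair of probes, at 0.397 and 0.226 in the wild type and 0.0791 and 0.145 in the knockout (-2.33 and -0.64, mean -1.48). Both probes were lower, but they differ by 1.69, the widest spread among the members.

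Of the lactate and ketone body carriers measured on both arrays, Slc16a1, Slc16a7, Slc16a3 and Slc16a6 did not reach 1.5-fold. Slc16a1 (MCT1) was at 0.156 in the wild type and 0.108 in the knockout (-0.53; 0.26 with spike-in scaling), and passed 1.5-fold under quantile normalization (-0.62). Slc16a7 (MCT2) was at 0.187 and 0.170 (-0.14). Probes filed under 9030411M13Rik and D630004K10Rik, which RefSeq assigns to Slc16a7, gave -0.45 and -0.57. Slc16a3 (MCT4), the lactate exporter of glycolytic cells, was at 0.149 and 0.140 (-0.09), with a pair of probes that share 53 bases at -0.25 and 0.08. Slc16a6, a ketone body exporter of hepatocytes, was at 1.81 and 1.95 (0.11).

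Among the carriers of other solutes, Slc16a10, which carries aromatic amino acids (TAT1), was at 0.313 in the wild type and 0.394 in the knockout (0.33), with 3 probes from 0.20 to 0.54. Slc16a12, a creatine carrier, was at 0.885 and 0.762 (-0.22), Slc16a9 at 0.270 and 0.358 (0.41) and Slc16a5 at 0.445 and 0.485 (0.12). None of these reached 1.5-fold. Slc16a8, the lactate carrier of retinal pigment epithelium, was measured in the wild type only, at 0.0844, at least 2.29-fold above the knockout. Slc16a4 and Slc16a14 were not well above background on either array.

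The obligate partner proteins and scaffolds of these carriers were looked at as a list of 6 genes. Among the 5 measured on both arrays 1 was higher and 1 lower, beside 8.42% and 13.4% of all genes. The list's median was -0.23 (0.56 with spike-in scaling). Bsg (basigin), the partner that brings MCT1 and MCT4 to the membrane, was at 12.1 and 10.3 (-0.23). Nptn, a relative of basigin, was higher, at 0.781 and 1.31 (0.75, with probes at 0.36 and 1.14). Slc9a3r1, a scaffold of membrane carriers (NHERF1), was lower, at 5.32 and 2.67 (-0.99).

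Of the exporters of organic cations, Slc47a1 (MATE1), which works at the canalicular membrane, was at 1.17 in the wild type and 1.51 in the knockout (0.37). Slc47a2, its neighbour on chromosome 11, was lower, at 0.102 and 0.0416 (-1.29), near the lowest level well above background on the knockout array (0.0368). The 2 genes thus stood on opposite sides of 0, with spike-in values of 1.16 and -0.50.

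In the Slc13a family 2 of 3 genes measured on both arrays were lower and 1 was higher, beside 13.4% and 8.42% of all genes. The family's median was -0.62 (0.18 with spike-in scaling). Slc13a5, the sodium-citrate cotransporter of hepatocytes, was higher: its probes read 0.229 and 0.116 in the wild type and 0.402 and 0.235 in the knockout (0.81 and 1.01, mean 0.91). With normexp background correction, none of the 3 higher members reached 1.5-fold: Slc13a5 was at 0.44, Slco1a4 at 0.48 and Slc22a15 at 0.24. Slc13a3, a carrier of succinate and other dicarboxylates, was at 4.15 in the wild type and 2.71 in the knockout (-0.62; 0.18 with spike-in scaling), and between -0.50 and -0.53 with quantile and loess normalization, normexp and the value table. Slc13a1, a sulfate carrier known from kidney and intestine, was at 0.624 and 0.303 (-1.04). Slc13a4, also a sulfate carrier, was measured in the wild type only, at 0.113, at least 3.08-fold above the knockout (a bound of -1.62; -0.77 with normexp and -0.83 with spike-in scaling). Slc13a2, the low-affinity dicarboxylate carrier, was measured in the knockout only with no fold above 1.

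**Figure D5:**
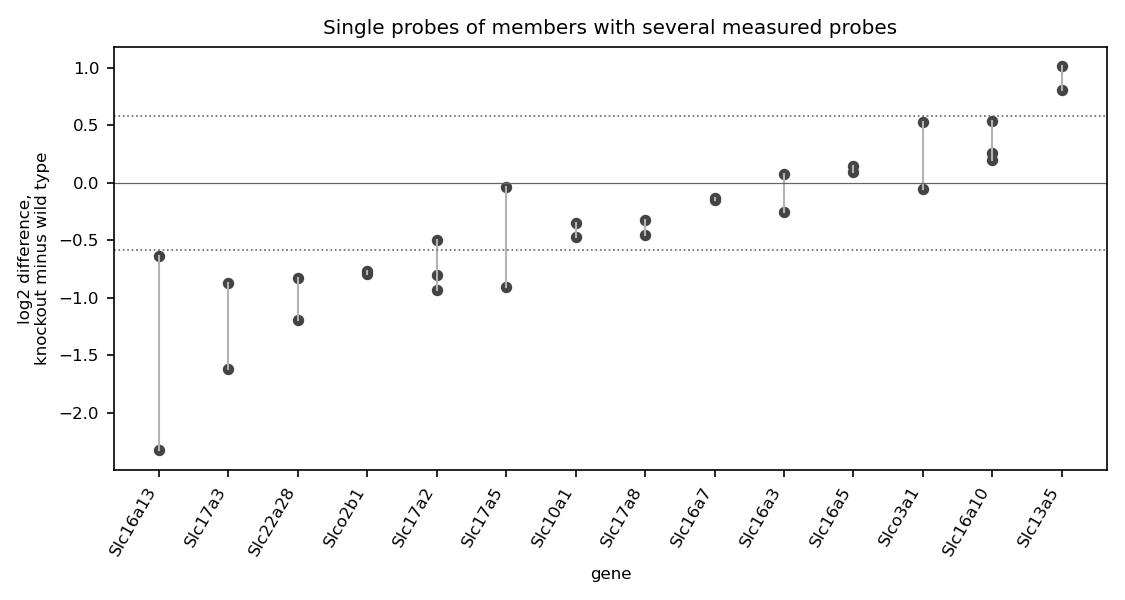
Log2 difference (knockout minus wild type) of each measured probe for the 14 transporter genes with several probes measured on both arrays, 1 array per group; grey lines join probes of a gene and dotted lines mark 1.5-fold. Probes of 12 genes share a sign, those of Slc16a3 and Slco3a1 do not, and those of Slc16a13, Slc17a5 and Slc17a3 lie furthest apart.

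Besides repeat spots of the same probe, several probes of 1 gene give a further reading within an array, at positions that differ. For the 14 members with several probes measured on both arrays, the median distance between the lowest and highest probe was 0.33. It reached the size of a 1.5-fold difference in 3: Slc16a13 (1.69), Slc17a5 (0.87) and Slc17a3 (0.75).

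Other genes of bile acid handling were taken as lists by function. Of 13 other bile acid and canalicular transporters measured on both arrays, 2 were higher and 3 lower, beside 8.42% and 13.4% of all genes. The list's median was -0.15 (0.64 with spike-in scaling). Abcc4, a basolateral exporter of bile acids, was higher at 0.115 in the wild type and 0.271 in the knockout (1.24), and Abcb1a, a drug exporter, at 0.137 and 0.216 (0.65). The sterol exporters Abcg5 and Abcg8 were lower, though above 0 with spike-in scaling, at 17.3 and 11.5 (-0.59) and at 0.612 and 0.369 (-0.73). Slc27a5, the bile acid-CoA ligase and fatty acid transport protein, was lower at 172 and 109 (-0.67; above 0 with spike-in scaling).

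Of 16 bile acid synthesis genes, 4 were lower and 0 higher, beside 13.4% and 8.42% of all genes. The list's median was -0.16. It turned to 0.057 under quantile and 0.066 under loess normalization, 0.053 in the deposited value table and 0.63 with spike-in scaling. Cyp7b1, an oxysterol hydroxylase of the alternative route, was lower at 34.2 in the wild type and 13.5 in the knockout (-1.34). Cyp46a1, a cholesterol hydroxylase, was at 0.366 and 0.216 (-0.76), and Akr1c6 at 336 and 222 (-0.60), both above 0 with spike-in scaling. The fourth, Slc27a5, is also in the transporter list. Cyp7a1, the rate-limiting enzyme of the classic route, was at 3.37 and 3.00 (-0.17).

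Of 23 transcription factors and receptors known to act on hepatic transporter genes, all measured on both arrays, 8 were lower and 3 higher. Over all genes the shares were 13.4% and 8.42%. The list's median was -0.36 (0.43 with spike-in scaling). Onecut1 (HNF6) stood at 3.90 in the wild type and 1.05 in the knockout (-1.90). Ppara, the fatty acid receptor, was at 16.04 and 7.34 (-1.13), and Foxa1 at 3.99 and 1.86 (-1.10). Nr1i3, the receptor CAR, was also lower (-0.81). Foxa2 (-0.77), the growth hormone receptor Ghr (-0.74), the thyroid hormone receptor Thrb (-0.62) and Cebpa (-0.60) were lower, but lay above 0 with spike-in scaling. Nr0b2, the repressor SHP (0.69), Foxa3 (0.69) and Rora (0.59) were higher. Hnf4a (-0.32), the bile acid receptor Nr1h4 (-0.30) and Stat5b (-0.01) did not reach 1.5-fold. Their part in the transporter differences was not tested.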

How the data were processed

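Total RNA of 1 liver sample per group was labelled with Cy3 and hybridised to Agilent 4x44K v2 mouse arrays, per the labels' protocols. Spot intensities are the background-subtracted processed signals of Agilent Feature Extraction (9.5.1.1 per the submitters' processing notes, 10.7.1.1 per the file headers), on the mm9 design. The deposited value table holds linear intensities with equal medians of 45.9. Flags (other columns) are the authors' scanner output.

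Spots flagged as outliers were left out, signals divided by the array's 75th percentile (461 for the wild type, 722 for the knockout) and log2-transformed, with probes averaged per gene. A probe counted as measured where at least 50% of its spots were well above background. For genes measured on 1 array, the bound sets the bright level against the higher of the dim level and the lowest level well above background there. Members were named by the files, and other genes through RefSeq (GRCm38.p6; 26761 probes by accession, 4459 by symbol, 8209 keep the file's name). Counts use 1.5-fold and 2-fold. The text names members at least 1.5-fold apart, the 10 brightest, those with a bound of 1.5-fold and the main hepatic members, except genes not reported here; the other members it names, and list genes under 1.5-fold, were chosen after their values were seen.

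With 1 array per group there is no test or p-value, and the number of arrays limits the precision. Alternatives were quantile, median and loess (span 0.3) normalization, normexp (offset 50, limma 3.58.1), the filter on dim probes, the brightest probe, the value table and, added later, spike-in scaling. The scripts (Python 3.11.15, pandas 2.3.3) were tested on simulated data. Members, lists and promoter windows were chosen with earlier results of these data known. No genome was used, and exon and UTR annotation of the probes is not given here.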

Additional observations from a re-analysis of the deposited data

How the results depend on the processing

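With 1 array per group no replicate could be left out. No paired analysis was possible because each group holds 1 array. A value is taken as moved where it shifted by more than the spot SD of a difference (0.16 log2 units), and a count where it changed by more than 1.5 times. The cause of a change was not tested unless the setting's construction shows it. Shares of all genes at 2-fold were worked out on the reported scale only (3.65% lower and 2.9% higher). The 2-fold counts of members in the other settings have no such share beside them. They cannot be read as particular to the members. All 20 lower members kept a negative difference under quantile, median and loess normalization, normexp, no filter, the brightest probe and the value table. So did the 13 still measured under the stricter filter, and 15 did with spike-in scaling. The 20 were picked as lower from these same values, so their kept sign is no separate support. Median centring adds only 0.017 to every gene. The filters and the brightest probe leave the value of a member with 1 probe unchanged. Spike-in scaling turned the members' median to 0.32, and the medians of Slco to 0.53, Slc22a to 0.30, Slc10a to 0.16, Slc47a to 0.33, Slc17a to 0.32, Slc16a to 0.65 and Slc13a to 0.18. It gave 16 members higher and 4 lower at 1.5-fold and 10 higher and 1 lower at 2-fold. Slc13a3 turned to 0.18, Slc17a1 to 0.17, Slc17a2 to 0.047, Slco1b2 to 0.10 and Slco2b1 to 0.014. The ancillary proteins turned to 0.56, other bile acid transporters to 0.64, synthesis enzymes to 0.63 and transcription factors to 0.43. The synthesis enzymes' median also turned under quantile (0.057) and loess normalization (0.066) and in the value table (0.053). The Slco median was -0.084 under quantile normalization, -0.044 under loess and -0.073 in the value table. Loess moved Slc10a to -0.35, Slc47a to -0.27 and other bile acid transporters to 0.0077. At 2-fold, 1 member was higher under median centring and 1 under loess. Normexp left 0 members higher at 1.5-fold, beside 4.28% of all genes, and 5 lower at 2-fold, with Slc10a at -0.47 and Slc47a at -0.18. Without the filter on dim probes, which lets in all 78 members, 7 were higher and 43 lower at 1.5-fold, and 2 and 17 at 2-fold. Of all genes, 10.5% were then higher and 37.5% lower at 1.5-fold, with a median of -0.31. The members let in include the 20 not well above background on either array. The members' median was -0.76, with Slco at -0.83, Slc22a at -0.82, Slc10a at -0.85 and Slc16a at -0.37. The stricter filter, which leaves 34 members, gave 1 higher and 13 lower at 1.5-fold and 7 lower at 2-fold. Of all genes, 5.70% were higher and 11.1% lower at 1.5-fold under it. It put Slc10a at -0.41, Slc47a at 0.37 (Slc47a1 alone), Slc13a at -0.83 and other bile acid transporters at -0.41. The brightest probe moved the ancillary proteins to -0.46. Signals near background limit the dim members: 16 of the 49 lie in the dimmest of 4 equal bins of measured genes.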
